A study of Mus musculus with 24 samples.

Results

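Proteasome genes were followed in 2 tissues of mice labelled as lacking the clock gene Bmal1 in astrocytes or as controls, on standard or high fat diet. They were chosen by name: every gene whose annotated symbol is Psm, a letter from a to g and a number, with no other symbol on its array feature and no pseudogene. This gave 48 of 30142 genes with a feature of a single symbol, and the brightest feature in a tissue stood for a gene with several. They comprise 7 alpha and 6 beta subunits of the 20S core, 3 inducible beta subunits (Psmb8, Psmb9 and Psmb10), the testis subunit Psma8 and the thymus subunit Psmb11. The 19S cap contributes 6 ATPases (Psmc1 to Psmc6), 11 other subunits and the 3 chaperones of its assembly, Psmd5, Psmd9 and Psmd10. The others are 4 chaperones of core assembly (Psmg1 to Psmg4), 3 activators (Psme1, Psme3 and Psme4) with the inhibitor Psmf1, and Psmc3ip and Psme3ip1, which carry such a symbol but encode binding partners, not subunits. The only feature of Psmb5, a catalytic subunit, also carries a microRNA symbol, and those of Psme2, the partner of Psme1, carry several, so neither gene is included.

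Total RNA was measured on 24 arrays, 3 in each of 8 groups formed by tissue, genotype and diet. The tissues were the ventromedial hypothalamus (VMH), dissected from brain sections of 100 µm, and 20 mg of brown adipose tissue (BAT), the heat-producing fat. Mice labelled Gfap-Bmal1 cKO (cKO below), in which Gfap, a gene of astrocytes, directs the deletion, and mice labelled control were kept for 16 weeks on a standard (SD) or a high fat (HFD) diet. Sample titles call the cKO mice KO and the controls WT, without further detail of the controls' alleles. The sources used here do not give the Cre line, the animals' age and sex, or whether each array of a group is a different animal. The series concerns the astrocyte clock and the control of energy use. P-values measure the spread between arrays, which may be technical.

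The proteasome degrades proteins marked with ubiquitin. Alpha subunits form the outer rings of the 20S core and gate its entrance, beta subunits form the inner rings that cut proteins, and the 19S cap recognises ubiquitin, removes it and unfolds the substrate with its ATPases. Interferon can replace the catalytic beta subunits by inducible ones, which favour peptides for MHC class I. Subunit genes are raised together by the transcription factor NRF1 (Nfe2l1) when proteasome activity runs short, and in brown fat NRF1 is known for adapting proteasome capacity to heat production.

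The 250 bases before the start site are shown for 4 members, the core and cap genes on which the brown fat results turn and a catalytic subunit, so that shared letters can be compared. They are RefSeq sequences of mouse build GRCm38.p6. Psma1 (chr7:114276117-114276366, minus strand) encodes an alpha subunit and Psmd14 (chr2:61711444-61711693, plus strand) the deubiquitinase of the cap. Psmb6 (chr11:70525107-70525356, plus strand) encodes a catalytic beta subunit and Psmd8 (chr7:29180674-29180923, minus strand) a subunit of the cap's lid. Capitals mark every match on either strand to the CCAAT box CCAAT, the E-box CACGTG, the antioxidant response element core TGACNNNGC, to which NRF1 and its relatives bind, and the interferon-stimulated response element core (GAAA, any 2 bases, GAAA).
Psma1: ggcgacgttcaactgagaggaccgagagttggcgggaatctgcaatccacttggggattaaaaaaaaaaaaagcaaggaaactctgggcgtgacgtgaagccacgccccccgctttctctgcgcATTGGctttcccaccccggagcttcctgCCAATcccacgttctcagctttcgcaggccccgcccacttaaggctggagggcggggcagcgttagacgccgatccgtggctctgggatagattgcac
Psmd14: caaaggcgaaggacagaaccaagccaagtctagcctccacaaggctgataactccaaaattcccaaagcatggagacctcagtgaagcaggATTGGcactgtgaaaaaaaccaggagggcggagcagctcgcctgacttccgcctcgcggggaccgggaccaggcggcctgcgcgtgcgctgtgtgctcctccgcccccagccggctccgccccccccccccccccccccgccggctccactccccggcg
Psmb6: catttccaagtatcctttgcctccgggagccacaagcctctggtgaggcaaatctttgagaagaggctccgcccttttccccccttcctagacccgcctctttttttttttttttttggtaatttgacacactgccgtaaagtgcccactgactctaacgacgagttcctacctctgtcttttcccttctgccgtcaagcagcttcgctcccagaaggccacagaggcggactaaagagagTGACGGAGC
Psmd8: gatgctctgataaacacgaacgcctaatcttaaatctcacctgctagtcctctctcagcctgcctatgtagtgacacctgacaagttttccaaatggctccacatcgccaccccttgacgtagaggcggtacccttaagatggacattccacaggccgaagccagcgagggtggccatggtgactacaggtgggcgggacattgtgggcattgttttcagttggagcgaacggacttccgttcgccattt
In Psma1 the CCAAT box began 126 and 98 bases before the start, on opposite strands, and in Psmd14 it began 159 bases before. The antioxidant element of Psmb6 began 9 bases before its start. Psmd8 held none of the 4 motifs in these letters. Over windows that also take in 50 bases after the start, the antioxidant element was found for 5 of 40 members with a window (12.5%), Psmb6, Psmc6, Psmd12, Psmd9 and Psme4, and for 14.0% of all 27025 genes with one. The CCAAT box was found for 16 members (40.0%) and 41.1% of genes, the E-box for 5 (12.5%) and 8.09%, and the interferon element for 5 (12.5%) and 3.99%, among them Psme1. A match is a run of letters, not a binding site. In Psmd14, 2 further CCAAT matches lay after the start and overlapped.

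The deposited values are log2 signals, and differences below are differences of log2 signal. Every core and cap subunit (the 30 alpha, beta, ATPase and other cap genes) lay above the array's background controls: the lowest value on any array was 7.39 in VMH (Psmd3) and 6.34 in BAT (Psmb3), while the highest mean of the 23 control features was 6.46 and 5.07. After a filter on dim features 41 members were tested among 16211 genes in VMH and 45 among 17124 in BAT. Psma8 (4.47 to 4.98 in VMH and 3.71 to 4.02 in BAT), Psmb11 (4.11 to 4.46 and 3.14 to 3.57) and Psmg3 did not reach it in either tissue, nor did Psmb8, Psmb9, Psmc3ip and Psmg4 in VMH. A member passed when limma's Benjamini-Hochberg adjusted p over all genes was under 0.05.

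Several facts about the arrays bear on all that follows. Arntl, the gene of Bmal1, was not lower in arrays labelled cKO: the difference in VMH was 0.55 ± 0.168 (SE) on SD and 0.24 ± 0.168 on HFD, and in BAT 0.40 ± 0.335 and 0.34 ± 0.335, none past the threshold. The labels do not give the deleted part, so this feature need not report on it. Each direction below rests on the label. The VMH marker Fezf1 was at 14.56 to 15.60 in all VMH arrays. The mean of 7 markers of VMH neurons, with Fezf1 among them, ran from 10.44 to 10.64 on SD and from 10.78 to 11.14 on HFD arrays. In BAT, Ucp1, the protein that makes heat in brown fat, was at 8.87 on control SD array 1, at 16.3 on cKO SD array 2 and at 19.31 or more on the other 10. The mean of 14 skeletal muscle markers ran from 6.13 to 17.43 over control SD arrays, from 14.85 to 17.26 over cKO SD arrays, from 6.14 to 10.05 over control HFD arrays and from 6.16 to 13.29 over cKO HFD arrays. In such bulk samples fewer cells of a type and less RNA per cell cannot be told apart. Between replicate arrays the median SD over members was 0.116 in VMH, beside 0.119 for all genes, and 0.323 in BAT, beside 0.234.

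**Figure D1:**
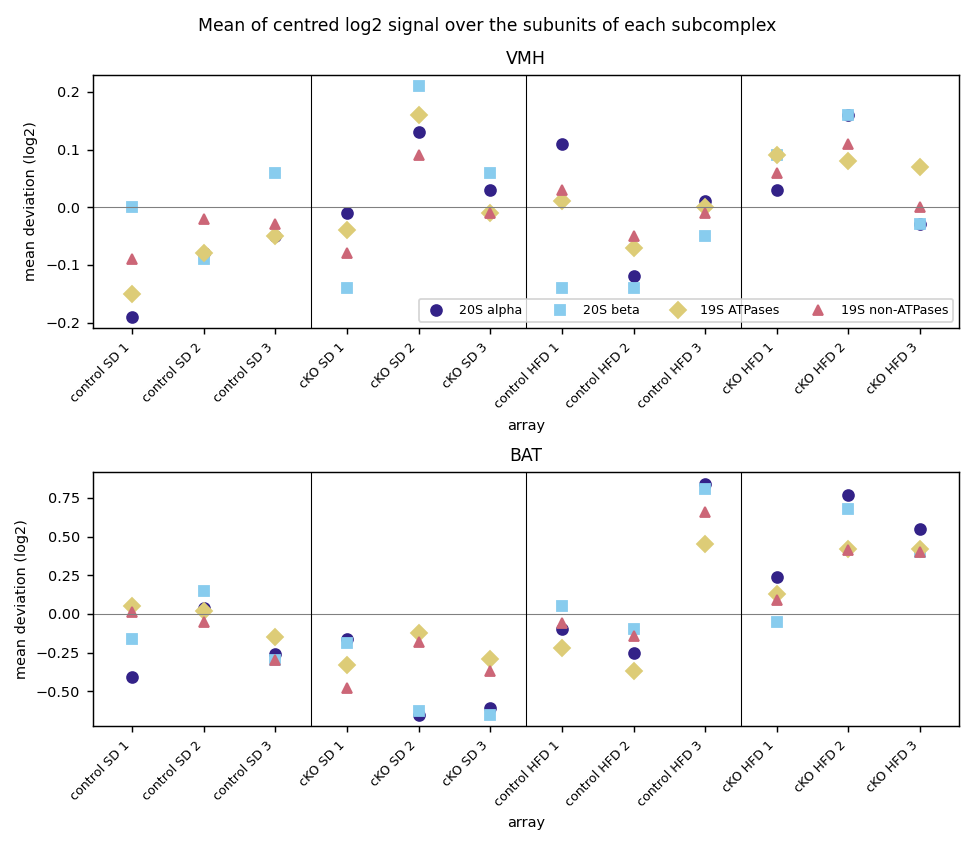
Mean deviation of the log2 signal from each gene's own mean over the 12 arrays of a tissue, for 7 alpha and 6 beta subunits, 6 cap ATPases and 11 other cap subunits (symbols), on each array (x axis), VMH above and BAT below on different scales. In BAT all 4 subcomplexes are highest on control HFD array 3 and above 0 on cKO HFD arrays 2 and 3, and below 0 on all cKO SD arrays.

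In BAT the median over members was farthest from 0 between the diets in cKO arrays: subunits of the core and the cap stood higher on HFD, although no member passed over all genes. Of 45 members tested 43 lay above 0, with a median log2 difference of 0.532, while 56.5% of all genes lay above 0 and their median was 0.044. At an unadjusted p under 0.05 in limma, 22 members were higher (12% of all genes were) and 1 was lower (10.9% were). The HFD arrays all lay above the SD arrays for 28 members, or 62.2%, where this held for 15.5% of all genes, and all below them for 1, Psmg2 (13.5% of all genes). With adjustment, 0 members and 0.0% of genes passed. Without cKO SD array 1, 4 members passed, Psma2 (1.29), Psmb2 (1.53), Psmd10 (1.31) and Psmd14 (1.77), with 6.91% of all genes, and with array weights 33 did, with 50.5% of all genes.

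All 7 alpha subunits were higher on HFD in cKO arrays at an unadjusted p under 0.05, none with overlapping arrays, by 0.78 (Psma6) to 1.34 (Psma1), with adjusted p from 0.107 to 0.143. Psma1 had log2 signals of 11.51, 10.48 and 10.62 on cKO SD arrays 1 to 3 and of 11.88, 12.51 and 12.22 on cKO HFD arrays 1 to 3, a difference of 1.34 ± 0.414 (SE). In controls it was at 10.86, 11.78 and 11.26 on SD and at 11.33, 11.26 and 12.62 on HFD. The control groups overlapped, with array 3 alone high on HFD, and the difference was 0.44 ± 0.414. For all 7 alpha subunits the difference in controls was above 0, from 0.15 (Psma6) to 0.58 (Psma2), with 0 past an unadjusted p of 0.05.

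Of the 6 constitutive beta subunits, 5 were higher on HFD in cKO arrays at that unadjusted level, from 0.43 (Psmb4) to 1.26 (Psmb2). Psmb7, the catalytic subunit that cuts after basic residues, was at 13.27, 12.50 and 12.56 on cKO SD arrays and at 13.50, 14.29 and 14.21 on cKO HFD arrays. Its difference of 1.23 ± 0.36 (SE) had a limma adjusted p of 0.119. Its control arrays read 13.22, 13.66 and 12.91 on SD and 13.77, 13.30 and 14.54 on HFD, and these overlapped. Psmb6, the catalytic subunit that cuts after acidic residues, had cKO arrays at 8.69, 8.42 and 8.37 on SD and at 8.70, 9.25 and 8.91 on HFD (0.46 ± 0.257). Its control values were 8.86, 8.82 and 8.43 on SD and 8.72, 8.72 and 9.65 on HFD. The diets were narrowly separate in cKO arrays and overlapped in controls. Psmb2, a structural beta subunit, read 8.07, 7.45 and 7.11 on cKO SD arrays, 8.53, 9.18 and 8.71 on cKO HFD arrays, 8.33, 8.70 and 8.16 on control SD arrays and 8.49, 8.67 and 9.53 on control HFD arrays. All its cKO SD arrays lay below all 9 others.

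Differences of the 3 inducible subunits in cKO arrays were small, with 0 past an unadjusted p of 0.05. Psmb8 was at 5.10, 4.79 and 4.98 on cKO SD arrays and at 5.28, 5.16 and 4.88 on cKO HFD arrays, a difference of 0.15 (95% interval -0.164 to 0.465). Control arrays read 4.61, 4.91 and 4.93 on SD and 4.87, 4.68 and 4.90 on HFD for Psmb8. Psmb9 differed by 0.12 (interval -0.132 to 0.377) in cKO arrays, from 4.64, 4.71 and 4.73 to 4.83, 5.01 and 4.62, and in controls by 0.04, from 4.58, 4.84 and 4.55 to 4.71, 4.67 and 4.71. Both genes overlapped between the diets in each genotype and lay near the top of the background features' range, so a change in them may not be detectable here. Psmb10, which lay above that range, was at 5.80, 6.0 and 5.81 on control SD arrays, at 6.55, 6.16 and 6.30 on control HFD arrays, at 5.96, 5.98 and 5.97 on cKO SD arrays and at 6.37, 6.08 and 6.03 on cKO HFD arrays. Its HFD arrays were all above the SD arrays in both genotypes, by 0.47 ± 0.126 (SE; adjusted p 0.0981) in controls and 0.19 ± 0.126 in cKO arrays. T and NK cell markers averaged 3.69 to 4.20 and B cell markers 3.75 to 4.07 on all BAT arrays, levels within the background range. Only 2 of the 6 T and NK cell markers were tested, Cd3g and Nkg7. Both were higher on HFD in cKO arrays at an unadjusted p under 0.05 (0.32 and 0.27), with 0 past the threshold.

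**Figure D2:**
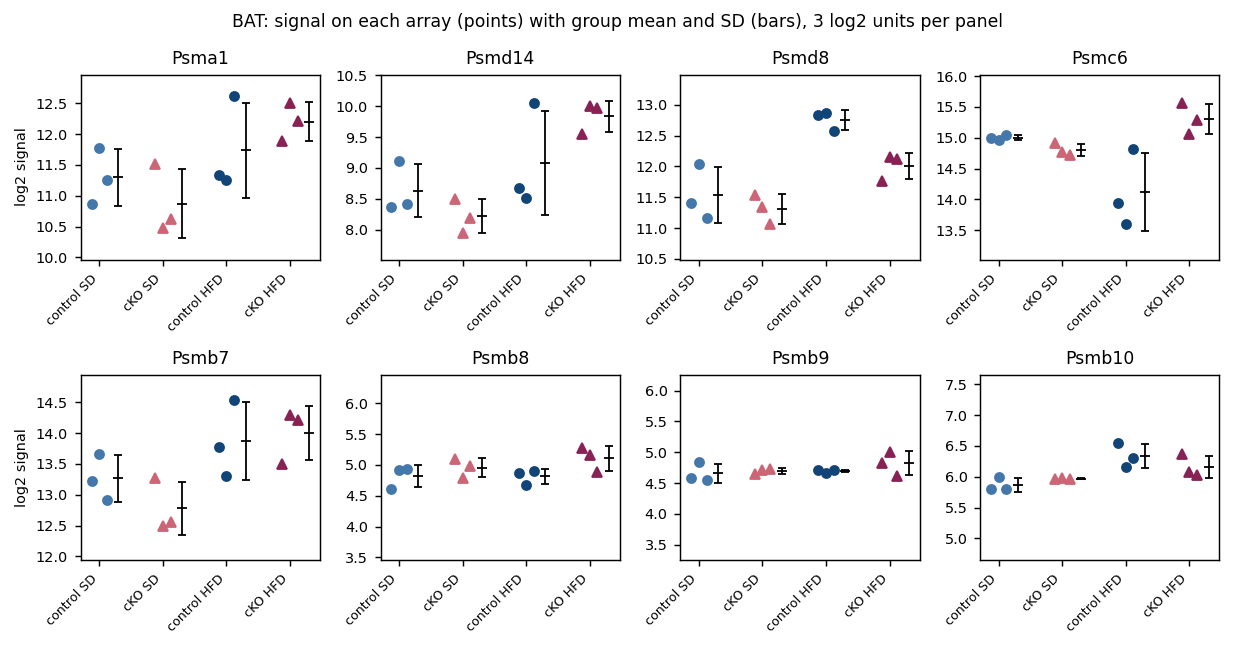
Log2 signal of 8 members on each BAT array (points) with the group mean and SD (bars), 4 groups of 3 arrays, 3 log2 units per panel on axes that do not start at 0. Psma1, Psmd14 and Psmb7 are higher on HFD in cKO arrays and on control HFD array 3, Psmd8 is highest on the control HFD arrays, and Psmb8 and Psmb9 overlap throughout.

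Among the cap ATPases, which unfold the substrate, all 6 stood above 0 in cKO arrays, from 0.26 (Psmc3) to 1.27 (Psmc4). Psmc4 was at 9.19, 9.20 and 8.98 on cKO SD arrays and at 10.05, 10.52 and 10.61 on cKO HFD arrays, a difference of 1.27 ± 0.323 (SE) with a limma adjusted p of 0.104. Its control arrays were at 9.25, 10.08 and 9.24 on SD and at 9.88, 10.02 and 11.03 on HFD, with array 2 on SD inside the HFD range (0.79 ± 0.323, adjusted p 0.191). In controls 3 of the 6 ATPases lay above 0 and 3 below, with a median of 0.02. Psmc6 lay lowest there. Its control SD arrays read 15.00, 14.97 and 15.04 and its control HFD arrays 13.94, 13.60 and 14.82, a difference of -0.88 ± 0.261 (adjusted p 0.113), with no overlap. On cKO arrays it read 14.91, 14.77 and 14.72 on SD and 15.56, 15.06 and 15.29 on HFD (0.51 ± 0.261), higher on all HFD arrays. Without control HFD array 3, Psmc6 passed in controls at -1.23 (adjusted p 0.0259).

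The other 11 cap subunits all stood above 0 in cKO arrays, 5 of them at an unadjusted p under 0.05. In controls 6 of the 11 lay above 0 and 5 below, with a median of 0.32. Psmd14, which removes ubiquitin from the substrate, was at 8.5, 7.95 and 8.19 on cKO SD arrays and at 9.55, 10.00 and 9.97 on cKO HFD arrays. This was the largest difference of any member, 1.63 ± 0.382 (SE; 95% interval 0.772 to 2.48; limma adjusted p 0.103). On control arrays it was at 8.36, 9.12 and 8.42 on SD and at 8.68, 8.51 and 10.05 on HFD (0.45 ± 0.382). Control HFD array 3 sat with the cKO HFD arrays, while control HFD arrays 1 and 2 lay within the SD range. Psmd1, a large scaffold subunit, was at 11.58, 11.82 and 11.70 on cKO SD arrays and at 12.20, 12.49 and 12.54 on cKO HFD arrays (0.71 ± 0.236). In controls it read 12.25, 11.95 and 11.88 on SD and 11.78, 11.56 and 12.58 on HFD, and these overlapped (-0.05 ± 0.236).

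Psmd8, a subunit of the lid, was the only member past the threshold in any comparison: it rose on HFD in controls, 1 of 45 members, while 0.771% of all genes passed. Control SD arrays read 11.40, 12.04 and 11.17 and control HFD arrays 12.84, 12.86 and 12.57, all above them, a difference of 1.22 ± 0.224 (SE; 95% interval 0.72 to 1.72; limma adjusted p 0.0426). On cKO arrays it was at 11.54, 11.34 and 11.06 on SD and at 11.77, 12.15 and 12.12 on HFD, a difference of 0.70 ± 0.224. It was high on all 3 control HFD arrays, not on array 3 alone. Its call was lost without any of the 6 arrays compared except control SD array 2 (adjusted p 0.0596 to 0.182), with no filter (0.0559), the compared groups alone (0.0983), array weights (0.238) or the muscle score as a covariate (0.191), and without the 2 arrays of lowest Ucp1 (0.18). Without control SD array 2 it passed at 1.47 (0.0107), together with Psme3, Psmf1 and Psmb10, at a share of 15.9% of all genes.

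Assembly chaperones split. Psmd10 and Psmd5, chaperones of the cap's base, were higher on HFD in cKO arrays by 1.02 ± 0.307 (SE) and 0.94 ± 0.29 (adjusted p 0.124 and 0.129), while Psmd9 differed by 0.08. Of the core's chaperones Psmg1 differed by 0.60 and Psmg4 by 0.14. On all BAT arrays Psmd9 (4.64 to 4.91) and Psmg4 (3.99 to 4.52) lay within the background features' range, which reached 5.07. A change in either may thus not be detectable here. Psmg2, the partner of Psmg1, was the only member lower at an unadjusted p under 0.05: 8.88, 9.25 and 8.70 on cKO SD arrays and 8.52, 8.49 and 8.42 on cKO HFD arrays, without overlap (-0.47 ± 0.164, adjusted p 0.154). Its control arrays read 9.51, 9.08 and 9.0 on SD and 8.92, 9.05 and 8.86 on HFD, which overlapped (-0.25 ± 0.164).

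Of the 3 activators and the inhibitor, Psme3 alone reached that level in cKO arrays. Psme1, part of the interferon-inducible activator, was at 9.05, 8.30 and 8.48 on cKO SD arrays, 8.88, 9.03 and 8.70 on cKO HFD arrays, 8.35, 8.64 and 8.5 on control SD arrays and 8.19, 8.5 and 9.0 on control HFD arrays, with overlap in both genotypes (0.26 and 0.06). Psme3, the nuclear activator, differed by 0.59 ± 0.227 (SE) in cKO arrays and by 0.74 ± 0.227 in controls (adjusted p 0.173 and 0.118), without overlap in either genotype. The inhibitor Psmf1 was at 5.81, 6.21 and 5.98 on control SD arrays and at 6.19, 6.58 and 6.46 on control HFD arrays (0.42 ± 0.128, adjusted p 0.119), which just overlapped, and at 5.95, 6.0 and 6.06 and 6.06, 6.13 and 6.21 on cKO SD and HFD arrays (0.13 ± 0.128). Of the binding partners, Psmc3ip lay between 4.44 and 4.67 on all 12 arrays, within the background features' range, and differed by -0.01 in cKO arrays. It read 4.44, 4.44 and 4.67 on control SD, 4.60, 4.65 and 4.47 on control HFD, 4.44, 4.49 and 4.57 on cKO SD and 4.51, 4.46 and 4.50 on cKO HFD arrays.

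**Figure D3:**
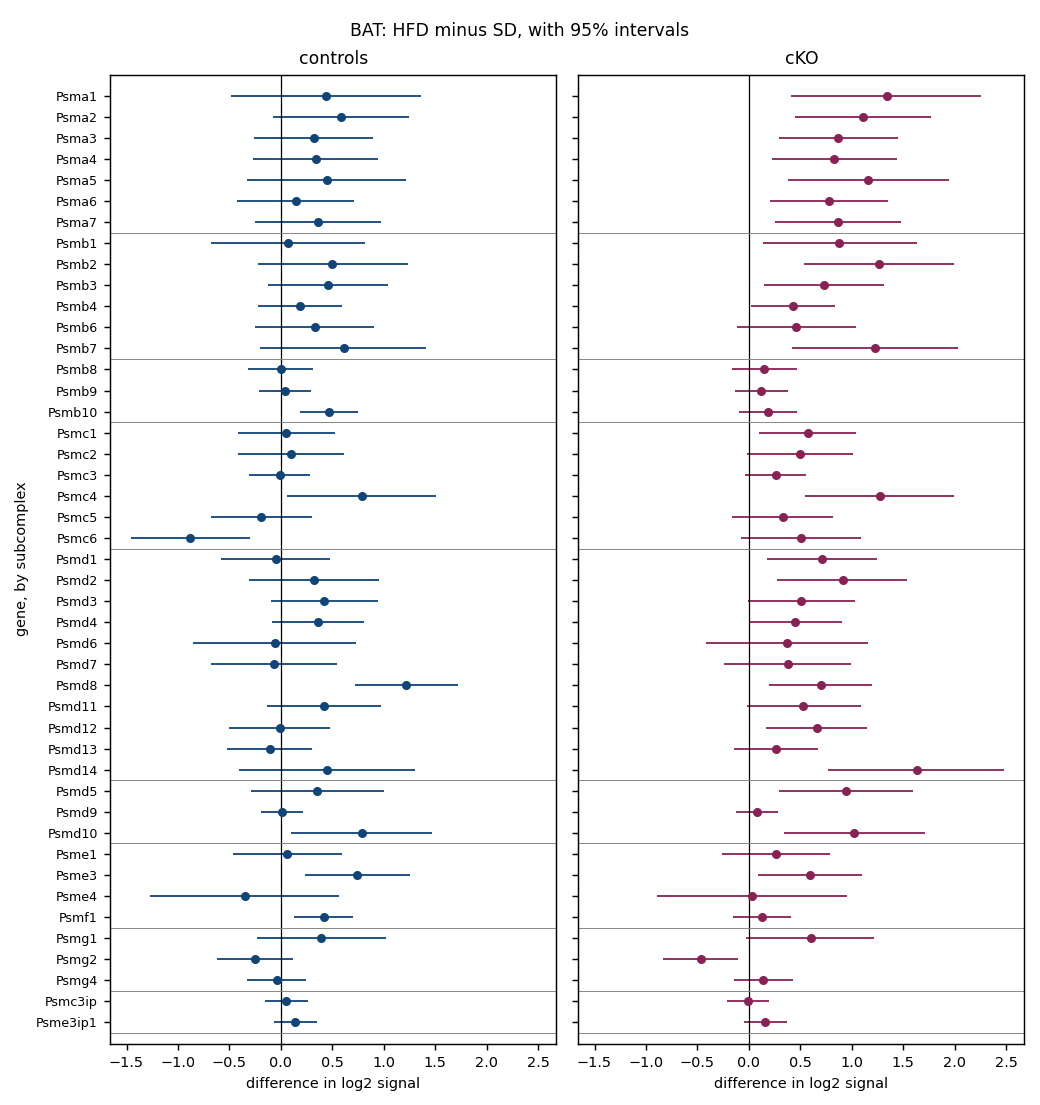
Log2 difference, HFD minus SD, of each of the 45 members tested in BAT (points) with 95% intervals (lines), controls left and cKO arrays right, grouped by subcomplex with lines between. In cKO arrays 43 points lie above 0, while in controls the points straddle 0 and Psmd8 lies highest and Psmc6 lowest.

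In controls the same comparison had a median over members of 0.318, beside 0.046 for all genes, and 33 of 45 lay above 0 (56.6% of all genes). At an unadjusted p under 0.05 in limma 6 members were higher (13.3% of members and of all genes) and 1, Psmc6, was lower (9.73% of all genes). HFD arrays all lay above SD arrays for 3 members, Psmb10, Psmd8 and Psme3 (6.67%, against 14.3% of all genes), and below them for Psmc6 (10.8% of all genes). That median rested on control HFD array 3: without it the value was 0.011. On that array all 30 core and cap subunits were above their own mean, and for 20 of the 30 it was the highest array of the tissue. On control HFD arrays 1 and 2 the number above their mean was 7 and 5. On cKO HFD arrays 1 to 3 it was 19, 30 and 30, on cKO SD arrays 1, 3 and 1, and on control SD arrays 11, 15 and 3. Of all genes, 53.8%, 54.3% and 53.0% lay above their own mean on control HFD arrays 1 to 3 and 51.0%, 52.2% and 46.1% on cKO HFD arrays. On SD these shares were 43.8%, 54.2% and 41.0% on control and 49.4%, 44.3% and 40.9% on cKO arrays. The mean deviation over all genes stayed between -0.034 and 0.026 on every BAT array. That of the 30 subunits ran from -0.47 on cKO SD array 3 to 0.69 on control HFD array 3. The mean of the muscle markers was 10.05 on control HFD array 3 and 10.84 and 13.29 on cKO HFD arrays 2 and 3. There the subunits deviated by 0.69, 0.55 and 0.44. On control HFD arrays 1 and 2 and cKO HFD array 1 the muscle mean was 7.37, 6.14 and 6.16. The subunits there deviated by -0.08, -0.2 and 0.11. On SD the muscle mean was 6.13 on control array 2 (deviation 0.03) and 14.85 to 17.43 on the other arrays (-0.47 to -0.11).

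Markers of other cells differed with diet too. All 14 muscle markers lay lower on HFD in both genotypes (median -6.0 in controls and -6.83 in cKO arrays) with 0 past the threshold. With the muscle score as a covariate the median over members in cKO arrays was 0.648, with 20 members higher at an unadjusted p under 0.05. The score ran from 2.962 to 5.365 on cKO SD and from -5.733 to 1.398 on cKO HFD arrays. As these do not overlap, the covariate cannot separate muscle from diet in cKO arrays. Without the 2 arrays of lowest Ucp1 the median over members was 0.577, with 21 higher at that level. Of 8 brown adipocyte markers 7 were above 0 in cKO arrays (median 1.14) and 8 in controls (1.5), with 0 past the threshold. All 12 macrophage markers were above 0 in both genotypes (medians 0.93 and 0.87); Cd68, of macrophage lysosomes, passed in controls (2.85 ± 0.415, SE; adjusted p 0.0335) and reached 2.49 in cKO arrays (0.0883). Their mean ran from 5.96 to 6.77 on control SD, 6.47 to 6.89 on cKO SD, 7.17 to 7.79 on control HFD and 7.19 to 8.23 on cKO HFD arrays. Of 5 white adipocyte markers 0 lay above 0 in controls (median -0.85) and 2 in cKO arrays (-0.92), with 0 past the threshold, and their mean ran from 10.7 to 12.68 on control SD, 10.42 to 11.81 on cKO SD, 9.28 to 10.07 on control HFD and 9.47 to 10.21 on cKO HFD arrays. The part of macrophages and of brown and white adipocytes in the result was not tested.

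**Figure D4:**
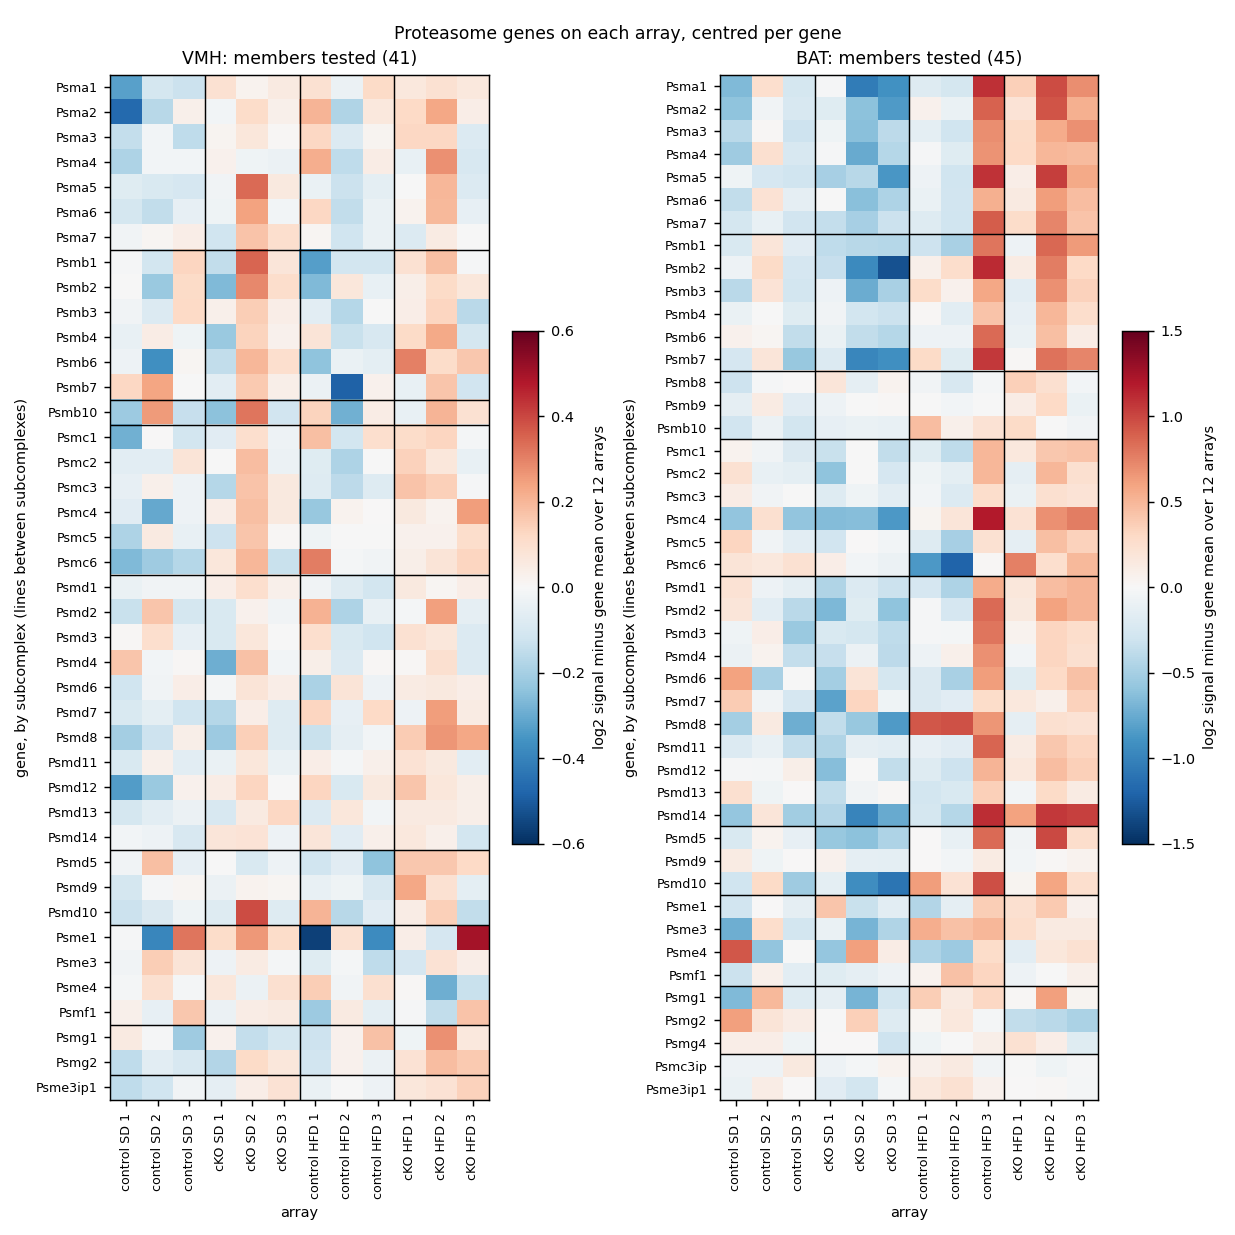
Log2 signal minus the gene's mean over the 12 arrays (colour; different scales) for the 41 members tested in VMH and the 45 in BAT (rows, by subcomplex) on each array (columns). In BAT the core and cap rows are red on control HFD array 3 and cKO HFD arrays 2 and 3, whereas the rows of Psmb8, Psmb9, Psmd9 and Psmc3ip stay near white. The BAT signal of these genes lay within or near the background range.

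Between genotypes no BAT member passed in limma on either diet, nor did any of all genes (0.0%), and 1 and 3 members reached an unadjusted p under 0.05 on SD and HFD (3.56% and 8.26% of all genes). On SD only 5 of 45 members lay above 0 in cKO arrays (46.4% of all genes), with a median of -0.21, beside -0.016 for all genes. The cKO arrays all lay below the controls for 9 members (20.0%, against 3.71% of all genes): Psma5, Psma7, Psmb1, Psmb2, Psmc3, Psmc4, Psmc6, Psmd1 and Psmd5. Psmb2 differed most, by -0.85 ± 0.324 (SE; limma adjusted p 0.982). The 5 members above 0 were the 3 inducible subunits (0.14 for Psmb8, 0.10 for Psmb10 and 0.04 for Psmb9), Psme1 (0.11) and Psmf1 (0.01), all with overlapping arrays. Psme3ip1 read 8.33, 8.54 and 8.44 on control and 8.26, 8.16 and 8.40 on cKO SD arrays (-0.17). Muscle markers lay higher in cKO arrays for 14 of 14 (median 3.03). Their mean was 17.43, 6.13 and 16.53 on control SD arrays and 14.85, 17.26 and 16.66 on cKO SD arrays, so control array 2 alone was low. With the muscle score as a covariate the median over members was -0.243. Without control SD array 2 it was -0.136, with 10 of 45 members above 0 and 0 at an unadjusted p under 0.05 in limma.

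On HFD the median over members was 0.133, with 30 of 45 above 0 (46.7% of all genes). With an array left out it ran from 0.007 (without control HFD array 2) to 0.391 (without control HFD array 3). Psmc6 was higher on every cKO HFD array than on any control HFD array, at the values given above, by 1.18 ± 0.261 (SE; limma adjusted p 0.48), the only member without overlap in that direction (2.22%, against 7.33% of all genes). It passed without control HFD array 3 (1.53, adjusted p 0.0196) and with array weights (1.26, 0.0446). Psmd8 lay lower on all cKO arrays, by -0.74 ± 0.224 (adjusted p 0.497), and passed with array weights (-0.72, 0.0451). Psmg2, Psme3 and Psme3ip1 also lay lower without overlap, by -0.46, -0.32 and -0.15, 4 members or 8.89% in all with Psmd8, against 12.5% of all genes. Psme3ip1 was at 8.59, 8.66 and 8.49 on control and at 8.44, 8.45 and 8.40 on cKO HFD arrays.

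The difference between the diet effects of the 2 genotypes was itself tested. No member passed in BAT (0.0% of all genes), and 39 of 45 lay above 0, meaning a larger HFD difference in cKO arrays, where 47.5% of all genes did. The median was 0.383, beside -0.014 for all genes. Psmc6 (1.39 ± 0.368, SE) and Psmd1 (0.76 ± 0.334) reached an unadjusted p under 0.05 (3.79% of all genes), with adjusted p of 1.0 in limma, and Psmd8 was at -0.52 ± 0.316. Without control HFD array 3 the median was 0.6 and 20 members reached an unadjusted p under 0.05, and with array weights it was 0.646 and 12 did, with 0 past the threshold in both. Over the arrays left out in turn the median ran from 0.233 to 0.6. Psma1 was at 0.90 (95% interval -0.411 to 2.21) and Psmd14 at 1.18 (-0.032 to 2.38). No member's difference in response passed the threshold, and such intervals do not show that the responses were alike. Averaged over diets 0 members passed in limma and 4 reached an unadjusted p under 0.05 (8.73% of all genes), with a median of -0.023, beside -0.016. That median had no stable sign: it was 0.085 without control HFD array 3, with 31 of 45 above 0, and -0.08 without control HFD array 2, with 9 of 45.

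In VMH differences were smaller and no member passed in any comparison. Between genotypes on SD, where 0.271% of all genes passed, 32 of 41 members lay above 0 in cKO arrays (57.3% of all genes), with a median of 0.069 beside 0.019, and 4 were higher at an unadjusted p under 0.05 (4.59%). The cKO arrays all lay above the controls for 7 members (17.1%, against 7.01% of all genes): Psma1, Psma3, Psma5, Psma6, Psmc4, Psmc6 and Psmd1. Psma1 read 10.10, 10.32 and 10.30 on control SD and 10.52, 10.45 and 10.48 on cKO SD arrays, a difference of 0.24 ± 0.0691 (SE; limma adjusted p 0.463). On HFD it read 10.52, 10.39 and 10.54 in controls and 10.49, 10.52 and 10.49 in cKO arrays, which overlapped (0.01; interaction -0.23 ± 0.0978, adjusted p 0.867). After quantile normalization the median on SD was 0.044.

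Markers of brain cells differed between the genotypes as well. Of 9 oligodendrocyte markers 1 lay above 0 in cKO arrays on SD and 2 on HFD (medians -0.63 and -0.45), with 0 past the threshold, and their mean ran from 9.63 to 10.97 on control SD, 9.23 to 10.17 on cKO SD, 9.82 to 10.09 on control HFD and 9.51 to 9.71 on cKO HFD arrays. Of 6 neuron markers 4 and 5 lay above 0 (medians 0.03 and 0.09), and Stmn2, a microtubule regulator of neurons, passed on both diets (0.70 and 0.89 ± 0.0729, SE; limma adjusted p 0.00156 and 0.000565). The neuron mean was 14.49 to 14.58 on control SD, 14.59 to 14.72 on cKO SD, 14.50 to 14.58 on control HFD and 14.75 to 14.85 on cKO HFD arrays. Of 8 astrocyte markers 4 and 5 lay above 0 (medians -0.01 and 0.01). Gfap was highest, at 1.53 and 1.09 ± 0.448 (adjusted p 0.48 and 0.397), and S100b lowest, at -0.46 and -0.31. On each diet 2 astrocyte markers were higher and 2 lower at an unadjusted p under 0.05, with 0 past the threshold. Averaged over diets 1 passed, Aqp4, which was higher in cKO arrays. These lists of cell markers were not used in any fit of the members. The part of these brain cells in the proteasome differences was not tested.

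Psmc6 had control SD arrays at 12.36, 12.41 and 12.45 below cKO SD arrays at 12.69, 12.82 and 12.49 (0.26 ± 0.101, SE; adjusted p 0.672), and HFD arrays at 12.93, 12.61 and 12.60 in controls and 12.66, 12.70 and 12.75 in cKO. Psmc4 was at 9.64, 9.40 and 9.68 on control SD and 9.75, 9.89 and 9.77 on cKO SD arrays, and at 9.48, 9.73 and 9.71 on control HFD and 9.77, 9.73 and 9.96 on cKO HFD arrays. The cKO arrays lay above the controls on both diets, narrowly on HFD (0.20 ± 0.069 averaged, adjusted p 0.308). Psma5, an alpha subunit, was at 10.46, 10.44 and 10.43 on control SD arrays and at 10.51, 10.87 and 10.59 on cKO SD arrays, without overlap, and at 10.49, 10.40 and 10.47 and at 10.53, 10.73 and 10.45 on control and cKO HFD arrays. Without cKO SD array 2, on which 29 of the 30 core and cap subunits were above their own mean (55.3% of all genes), the median over members was 0.021. Without cKO SD array 1 it was 0.131, and without control SD array 1 it was 0.042, beside 0.003 for all genes. Control SD array 1 was the lowest VMH array for 9 of the 30 subunits. The mean deviation over all genes ran from -0.065 on that array to 0.05 on cKO HFD array 2.

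On HFD, where 0.302% of all genes passed, 38 of 41 members lay above 0 in cKO arrays (59.6% of all genes), with a median of 0.082 beside 0.029. After quantile normalization 29 lay above 0 and the median was 0.035, and without control HFD array 2, 27 lay above 0 with a median of 0.07. At an unadjusted p under 0.05 in limma 6 were higher (7.75%) and 1 was lower (3.55%). The cKO arrays lay above the controls for 10 members (24.4%, against 13.1%). Psmd5, the cap chaperone, was at 12.80, 12.85 and 12.68 on control HFD and 13.08, 13.08 and 13.04 on cKO HFD arrays, a difference of 0.29 ± 0.0709 (SE; limma adjusted p 0.166). On SD it was at 12.90, 13.10 and 12.87 in controls and at 12.92, 12.83 and 12.89 in cKO arrays, which overlapped (-0.08), and the interaction was 0.37 ± 0.1 (adjusted p 0.856). Psmd8 was at 9.56, 9.64 and 9.68 on control HFD and 9.85, 9.96 and 9.93 on cKO HFD arrays (0.28 ± 0.0928, adjusted p 0.31), opposite in sign to its BAT difference on this diet, and at 9.49, 9.57 and 9.73 and at 9.48, 9.84 and 9.62 on control and cKO SD arrays. Psmd5 and Psmd8 thus had separate groups on HFD and overlapping groups on SD.

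The catalytic Psmb6 was at 9.33, 9.53 and 9.51 on control HFD and 9.87, 9.68 and 9.73 on cKO HFD arrays (0.30 ± 0.119, SE; adjusted p 0.379), and at 9.54, 9.20 and 9.58 and at 9.42, 9.77 and 9.67 on control and cKO SD arrays, which overlapped. Psmb7 overlapped on both diets, with 11.91, 12.02 and 11.78 on control SD, 11.72, 11.94 and 11.82 on cKO SD, 11.75, 11.30 and 11.81 on control HFD and 11.74, 11.95 and 11.67 on cKO HFD arrays. The inducible Psmb10 read 6.45, 6.92 and 6.53 on control SD, 6.42, 6.99 and 6.55 on cKO SD, 6.80, 6.38 and 6.71 on control HFD and 6.62, 6.87 and 6.76 on cKO HFD arrays, which overlapped (0.02 on SD and 0.12 on HFD). The VMH values of Psmb10, 6.38 to 6.99, lay near the highest mean of the background features (6.46), so a change in it may not be detectable there. Psmb8 lay between 4.69 and 4.95 and Psmb9 between 4.74 and 4.99 on all VMH arrays and were not tested there.

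**Figure D5:**
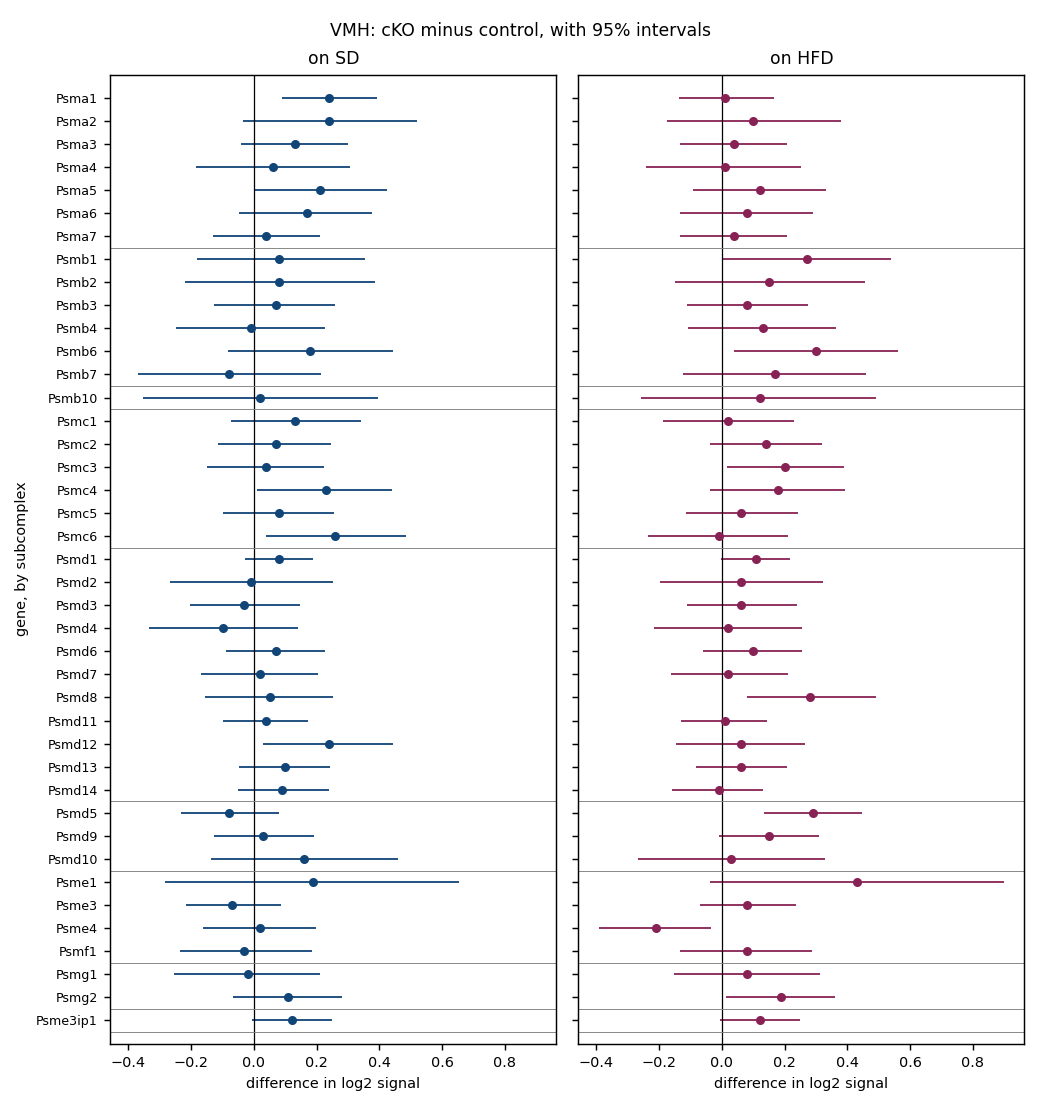
Log2 difference, cKO minus control, of each of the 41 members tested in VMH (points) with 95% intervals (lines), on SD left and HFD right, grouped by subcomplex. Most points lie slightly above 0 on both diets (32 and 38 of 41), and Psme4 lies lowest on HFD.

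Psme4, an activator of the core in the nucleus, was the member lower in cKO arrays on HFD at an unadjusted p under 0.05, with 9.62, 9.45 and 9.57 in controls and 9.48, 9.18 and 9.34 in cKO arrays (-0.21 ± 0.0813, SE; adjusted p 0.361). These groups overlapped, and on SD it read 9.46, 9.57 and 9.46 and 9.54, 9.44 and 9.57. Psme1 spread more between replicates than any other VMH member tested (SD 0.296), with 8.97, 8.59 and 9.30 on control SD, 9.09, 9.24 and 9.09 on cKO SD, 8.42, 9.07 and 8.60 on control HFD and 9.02, 8.88 and 9.48 on cKO HFD arrays. Its groups overlapped on both diets, and its difference on HFD was 0.43 (95% interval -0.0364 to 0.9). Psme3 read 12.05, 12.22 and 12.15 on control SD and 12.04, 12.12 and 12.06 on cKO SD arrays (-0.07), and 12, 12.06 and 11.92 and 11.97, 12.16 and 12.11 on HFD.

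Averaged over diets, where 0.66% of all genes passed, 39 of 41 members lay above 0 in cKO arrays (60.5% of all genes), and 9 were higher at an unadjusted p under 0.05 (8.45%). After quantile normalization 31 lay above 0 and the median was 0.052 in place of 0.083. Psme3ip1, a binding partner of Psme3, had the highest statistic, with 9.05, 9.08 and 9.18 on control SD, 9.15, 9.24 and 9.29 on cKO SD, 9.16, 9.20 and 9.17 on control HFD and 9.27, 9.29 and 9.34 on cKO HFD arrays (0.12 ± 0.0407, SE; adjusted p 0.296). Psmd4, a ubiquitin receptor of the cap, was 1 of 2 members below 0 (-0.04), with 9.52, 9.34 and 9.36 on control SD, 9.06, 9.53 and 9.34 on cKO SD, 9.39, 9.27 and 9.36 on control HFD and 9.36, 9.45 and 9.27 on cKO HFD arrays. Psme4 was the other.

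HFD against SD gave no called member in VMH in either genotype (0.0% of all genes in controls and 0.00617% in cKO arrays). In controls 23 of 41 lay above 0, a share of 56.1% and the same as over all genes, with a median of 0.019. In cKO arrays 30 lay above 0 (59.5% of all genes), with a median of 0.03 that was -0.023 after quantile normalization. Psmd14, of which the BAT values spread widely, read 9.93, 9.92 and 9.85 on control SD, 10.02, 10.03 and 9.92 on cKO SD, 10.02, 9.88 and 9.98 on control HFD and 10.01, 9.98 and 9.84 on cKO HFD arrays in VMH, and its groups overlapped in every comparison. At an unadjusted p under 0.05 in limma there were 3 members in each genotype (8.49% and 9.56% of all genes), Psma1 (0.25), Psmc6 (0.31) and Psmd5 (-0.18) in controls and Psmd8 (0.26), Psmd5 (0.19) and Psme4 (-0.18) in cKO arrays. The interaction called 0 members and 0.0% of all genes, with Psmd5 and Psma1 at an unadjusted p under 0.05 (5.62% of all genes). Of 7 markers of VMH neurons 7 were higher on HFD in controls (median 0.32) and 7 in cKO arrays (0.42), with 0 past the threshold. Their part in the diet comparisons of the members was not tested.

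Other genes of the pathway were read from 4 lists. The NRF1 list, with the factor itself, its processing enzymes and its small Maf partners, had 12 genes tested in each tissue, the list of further subunits and proteasome-bound factors 12, the ubiquitin list 7, and the list of MHC class I and interferon genes 14 in VMH and 17 in BAT. None passed in any comparison in either tissue. Nfe2l1, which encodes NRF1, was at 13.12, 13.12 and 13.02 on cKO SD and 13.17, 13.38 and 13.31 on cKO HFD arrays in BAT, where the HFD arrays lay just above (0.20 ± 0.214, SE; adjusted p 0.577), and at 13.01, 13.61 and 13.22 and at 14.07, 13.56 and 13.19 on control arrays, which overlapped.

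In the comparison of diets in BAT cKO arrays 12% of all genes were higher and 10.9% lower at an unadjusted p under 0.05. The NRF1 list had 3 of 12 genes higher at that level, Nploc4 (0.94), Ufd1 (1.24) and Vcp (0.64), which together extract ubiquitinated proteins from membranes, and Fbxw7, of a ubiquitin ligase, lower (-1.02). Among the proteasome-bound factors 5 of 12 were higher, the shuttle Ubqln1 (1.14), the ubiquitin ligase Ube3c (0.44), Pomp, the maturation factor of the core (1.15 ± 0.34, SE), the cap subunit Sem1 (0.41) and the cap's deubiquitinase Usp14 (1.01). Zfand5 (-1.05) and Akirin2 (-0.84) were lower; these and Usp14 are named after their values were seen. Pomp read 11.45, 11.64 and 11.58 on cKO SD, 12.42, 12.99 and 12.70 on cKO HFD, 12.22, 11.85 and 11.82 on control SD and 11.65, 11.65 and 13.07 on control HFD arrays. It was high on all cKO HFD arrays and on control HFD array 3. Of the ubiquitin list 3 of 7 were higher, with Ube2k at 0.87, and of the MHC list 7 of 17, with Tapbp, the peptide-loading factor tapasin, at 1.24 ± 0.331. The medians were 0.18, 0.37, 0.15 and 0.30 in the order of the lists, beside 0.044 for all genes. In controls these lists had 1, 2, 0 and 3 genes higher at that level (13.3% of all genes) and 0, 0, 1 and 1 lower (9.73%). Their medians there were 0.11, -0.05, 0.07 and 0.17, beside 0.046 for all genes. Ufd1 (0.66), Fbxw7 (-0.72), Ubqln1 (0.67), Zfand5 (-1.01) and Tapbp (0.82) had the same sign in controls as in cKO arrays.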

How the data were processed

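The authors deposited log2 signals of 72688 array features on 24 Affymetrix arrays, made with Affymetrix Expression Console 1.1.1 and PLIER 2.0, per the submitters' processing notes. The genome build was not given in the sources used here, nor was the normalization between arrays. Array medians differed little (5.482 to 5.572 in VMH, 4.069 to 4.157 in BAT). Values end at a ceiling of 19.9315, which no proteasome gene reached. Of the features, 30604 have a single gene symbol in the platform annotation and 2146 have several, which were not used.

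Within each tissue, genes whose mean over 12 arrays reached the median of all features (5.5069 and 4.1275) were fitted in limma 3.58.1 (R 4.3.3) with 4 groups of 3 arrays. There were 6 comparisons per tissue: genotype on each diet and averaged, diet in each genotype, and their interaction. P-values were adjusted by Benjamini-Hochberg over all genes tested in a tissue, within each comparison. Errors are SE of the difference, with 95% intervals unadjusted. No 2 arrays held identical values, and the number of arrays limits the precision.

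Members given on every array are those past the threshold, the 2 highest and 2 lowest statistics of each comparison, the catalytic and inducible subunits, and Psme1. Psma1 in BAT, Pomp and Nfe2l1 were added after their values were seen. The members and gene lists were chosen with earlier results of these data known. Promoters came from RefSeq, for 40 of 48 members. Alternatives were to average a gene's features, to drop the filter, quantile normalization, a pseudocount of 16, array weights, the compared groups alone, a replicate block, each array left out, and in BAT a muscle score as covariate or the 2 arrays of lowest Ucp1 left out.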

Additional observations from a re-analysis of the deposited data

How the results depend on the processing

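Between the diets in BAT controls, the call of Psmd8 was lost (0 members past the threshold) with no filter, the compared groups alone, array weights, the muscle score as covariate and without the 2 arrays of lowest Ucp1, and the count ran from 0 to 4 with an array left out. The median there ran from 0.011 to 0.343 with an array left out and was 0.121 with array weights and 0.167 with no filter. In BAT cKO arrays the count between diets was 33 with array weights and 0 to 4 with an array left out. Between genotypes on HFD in BAT the count was 2 with array weights and 0 to 1 with an array left out, and the median ran from 0.007 to 0.391. The interaction's median in BAT was 0.646 with array weights and 0.233 to 0.6 with an array left out, and the median averaged over diets ran from -0.08 to 0.085. In VMH the median with an array left out ran from 0.021 to 0.131 between genotypes on SD, from -0.01 to 0.082 between diets in cKO arrays (-0.023 after quantile normalization) and from -0.021 to 0.059 for the interaction. Differences near 0 changed sign: Psmc3ip between diets in BAT cKO arrays (0.0004 after quantile normalization, 0.013 with the muscle score, -0.039 to 0.028 with an array left out), and in VMH, with an array left out, Psmd14 between genotypes on HFD (-0.054 to 0.037), Psmd4 averaged over diets (-0.094 to 0.024) and Psma5 between diets in cKO arrays (-0.16 to 0.024). The causes were not tested. Quantile normalization lowered the VMH genotype medians from 0.069 to 0.044 on SD, from 0.082 to 0.035 on HFD and from 0.083 to 0.052 averaged.

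Same-numbered arrays did not all deviate together: r between them ran from -0.351 to 0.28 in VMH, and in BAT from -0.772 to 0.291 for numbers 1 and 2 but from 0.13 to 0.39 for number 3. The numbers were not taken as pairs, since only number 3 in BAT had every r above 0.1. With the replicate number as a block 0 members passed between diets in BAT controls (Psmd8 adjusted p 0.0724) and the genes called there went from 132 to 0, and from 44 to 30 between genotypes in VMH on SD. No other count of members past the threshold changed.

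With 3 arrays a group, the median SE over members was 0.093 in VMH and 0.248 in BAT, so BAT differences are resolved less finely. The signal of Psmb8 and Psmb9 lay near background in both tissues, as did that of Psmb10 in VMH and of Psmd9, Psmg4 and Psmc3ip in BAT. This limits what can be seen of them. Arntl was not lower in cKO arrays, and muscle, macrophage and brown adipocyte markers varied between BAT arrays.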
